A study of Mus musculus with 12 samples.

Results

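Transcripts of 9 genes of the mitochondrial death pathway were followed in mouse MC3T3 sc4 cells given SAHA: the BH3-only genes Bcl2l11, Bmf and Bbc3, the pore-forming genes Bax and Bak1, the pro-survival genes Bcl2l1, Bcl2l2 and Mcl1, and the apoptosome gene Apaf1. All probes annotated to these symbols on an Illumina mouse BeadChip were taken, which gave 22 of the 45281 probes and covered 8 of the 9 genes, out of 19057 genes named on the array. Bax had no annotated probe here and was not analysed. The MC3T3 line was made from mouse skull bone and can mature into osteoblasts, sc4 is one of its subclones, and the cells had been in osteogenic medium with ascorbic acid and beta glycerol phosphate until day 4. The 12 arrays formed 3 groups of 4, namely the solvent DMSO, 20 µM SAHA for 2 h and 20 µM SAHA for 6 h. SAHA (vorinostat) inhibits zinc-dependent histone deacetylases. All cells, controls included, were digested with collagenase for 40 min in the presence of SAHA or solvent before RNA was isolated, and 200 ng of RNA was labelled per array. The protocol describes an exposure of 2 h for SAHA and solvent alike and no solvent group of 6 h is labelled, so at 6 h effects of SAHA and of hours in culture cannot be told apart. Nothing in the labels ties the 4 arrays of a group to separate cultures, and the p-values therefore cover the spread among these 12 arrays, which may be technical.

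Proteins of the BCL2 family decide whether the outer mitochondrial membrane stays sealed. BH3-only proteins sense damage or stress and either switch on BAX and BAK, which form the pores, or occupy the groove of the pro-survival proteins BCL-XL, BCL-W and MCL1 that otherwise hold BAX, BAK and BH3-only proteins in check. Once the membrane is open, cytochrome c binds APAF1, which assembles into the apoptosome and activates caspase 9. Several of these genes, Bim (Bcl2l11) and Bmf among them, are known to respond at the transcript level to histone deacetylase inhibitors in tumour cell lines, and Bim is also known as a regulator of osteoblast and osteoclast survival in mouse bone.

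Transcripts of Bcl2l11, Bmf, Mcl1 and Apaf1 were higher than in DMSO both at 2 h and at 6 h of SAHA, while Bak1, Bcl2l2 and 1 of 3 probes of Bbc3 fell. Bcl2l11 was 5.28-fold higher at 2 h by 1 probe, and at 6 h Bcl2l2 was 2.35-fold and 2.45-fold lower by 2 probes. Values are log2 intensities after background correction and quantile normalization, and each ± gives the standard error from limma (n = 4 per group) unless SD is named. A probe passed when its limma p, after Benjamini-Hochberg adjustment across the 16431 probes kept, was under 0.05. Probes were kept when their detection p, which sets a probe against the negative controls, fell below 0.01 on 4 or more arrays out of 12. Of the 22 probes, 15 were kept. Since RNA of the whole culture was measured, fewer cells of a kind and less RNA per cell cannot be told apart. The brightness of a probe depends on its own sequence, so no level is set against that of another probe.

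The probes kept were 2 of 4 for Bcl2l11, 3 of 3 for Bbc3, 3 of 3 for Apaf1, 3 of 5 for Bcl2l2, 1 of 4 for Bcl2l1 and the only probe of each of Bmf, Bak1 and Mcl1. Of the 7 that were not kept, 5 were undetected on all 12 arrays, 1 of them for Bcl2l11, 3 for Bcl2l1 and 1 for Bcl2l2. The Bcl2l11 probe ILMN_1229255 was detected on 1 array, at 2 h of SAHA, and the Bcl2l2 probe ILMN_2601572 on 1 array at 2 h and 1 DMSO array.

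**Figure D1:**
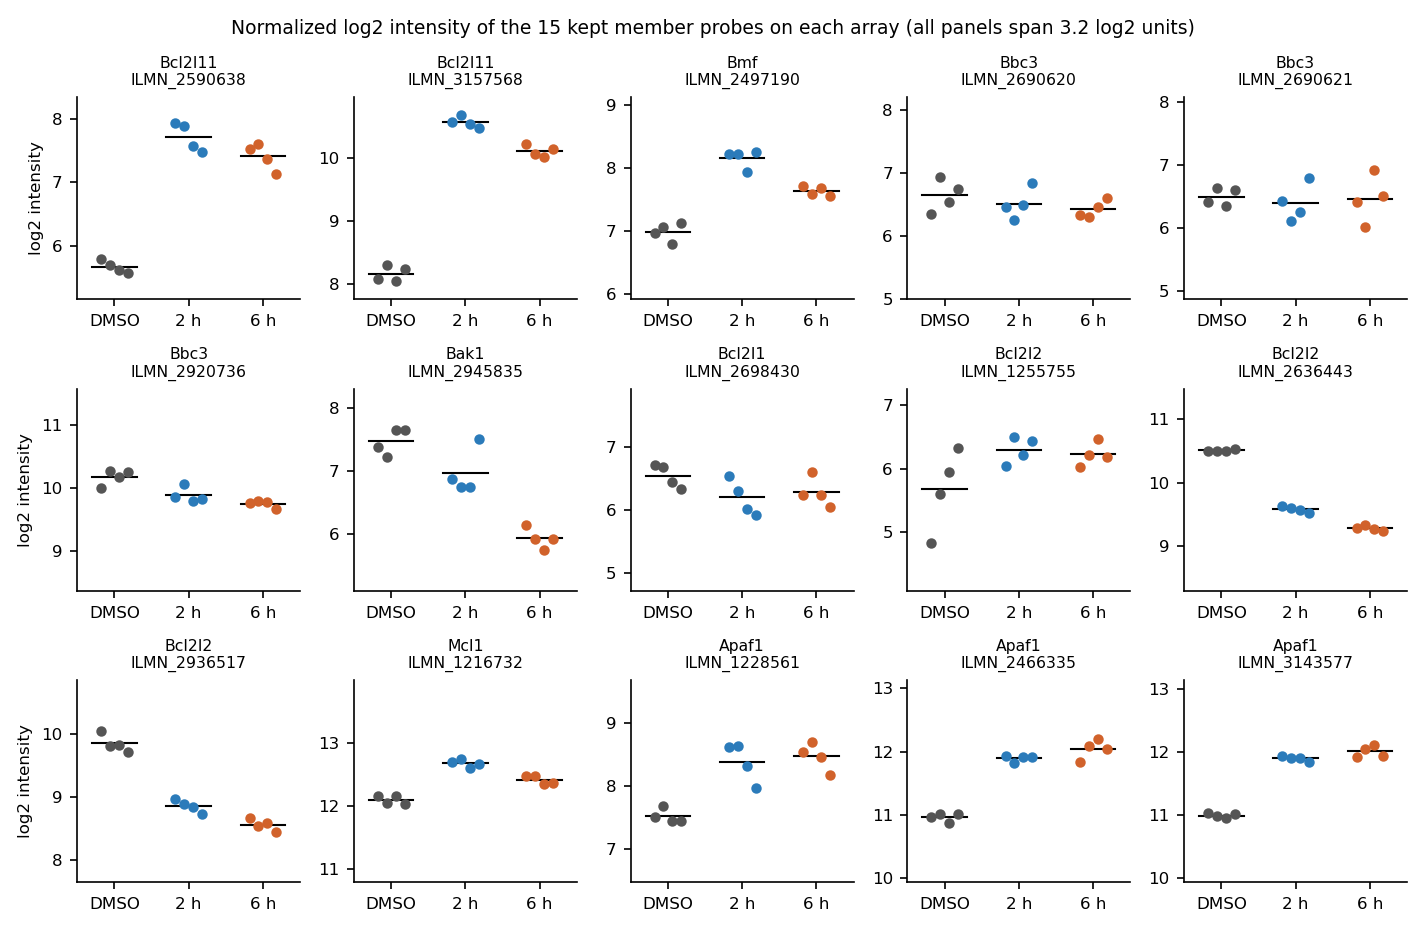
Normalized log2 intensity (vertical axis) of each of the 15 kept probes on each of the 12 arrays, in panels that all span the same range; points are arrays of DMSO, 2 h and 6 h of SAHA from left to right, and bars are group means. The probes of Bcl2l11, Bmf, Mcl1 and Apaf1 lie higher on every SAHA array than on every DMSO array, 2 probes of Bcl2l2 lie lower, and Bak1 is lowest at 6 h.

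The 250 bases before the most upstream transcript start of the 4 genes that rose at both times and of Bbc3, Bak1 and Bcl2l2, which fell at both by at least 1 probe, are shown because these 7 genes passed at both times. The sequences are RefSeq's on build GRCm38.p6, read 5′ to 3′ along the gene's strand. The windows are chr2:128125788-128126037 on the + strand for Bcl2l11, chr2:118549687-118549936 on the - strand for Bmf, chr3:95658471-95658720 on the + strand for Mcl1, chr10:91082744-91082993 on the - strand for Apaf1, chr7:16309333-16309582 on the + strand for Bbc3, chr17:27028628-27028877 on the - strand for Bak1 and chr14:54883175-54883424 on the + strand for Bcl2l2. Capitals mark the GC box letters GGGCGG or, on the other strand, CCGCCC.
Bcl2l11: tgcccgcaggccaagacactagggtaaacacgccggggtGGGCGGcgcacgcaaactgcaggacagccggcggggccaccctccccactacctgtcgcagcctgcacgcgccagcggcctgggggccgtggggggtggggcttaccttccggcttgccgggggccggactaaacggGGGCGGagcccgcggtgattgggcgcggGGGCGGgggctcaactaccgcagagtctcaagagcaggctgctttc
Bmf: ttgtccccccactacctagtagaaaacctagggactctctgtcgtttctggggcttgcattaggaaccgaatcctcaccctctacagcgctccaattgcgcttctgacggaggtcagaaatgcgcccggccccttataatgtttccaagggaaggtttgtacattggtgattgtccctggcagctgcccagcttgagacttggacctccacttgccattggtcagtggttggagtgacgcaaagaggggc
Mcl1: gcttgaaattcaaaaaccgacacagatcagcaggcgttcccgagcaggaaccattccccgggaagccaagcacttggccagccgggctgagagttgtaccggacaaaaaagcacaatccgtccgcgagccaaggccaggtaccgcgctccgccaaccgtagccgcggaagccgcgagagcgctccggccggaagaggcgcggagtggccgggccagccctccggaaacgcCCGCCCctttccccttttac
Apaf1: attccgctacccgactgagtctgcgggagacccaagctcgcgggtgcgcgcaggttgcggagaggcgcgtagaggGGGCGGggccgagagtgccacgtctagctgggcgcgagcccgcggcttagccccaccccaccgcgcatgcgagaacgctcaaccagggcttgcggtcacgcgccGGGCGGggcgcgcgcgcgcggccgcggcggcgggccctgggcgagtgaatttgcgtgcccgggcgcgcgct
Bbc3: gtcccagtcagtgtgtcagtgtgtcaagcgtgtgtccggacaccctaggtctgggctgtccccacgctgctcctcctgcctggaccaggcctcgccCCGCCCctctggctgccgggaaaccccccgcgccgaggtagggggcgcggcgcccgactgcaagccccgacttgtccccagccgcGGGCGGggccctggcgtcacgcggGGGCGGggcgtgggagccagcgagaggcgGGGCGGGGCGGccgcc
Bak1: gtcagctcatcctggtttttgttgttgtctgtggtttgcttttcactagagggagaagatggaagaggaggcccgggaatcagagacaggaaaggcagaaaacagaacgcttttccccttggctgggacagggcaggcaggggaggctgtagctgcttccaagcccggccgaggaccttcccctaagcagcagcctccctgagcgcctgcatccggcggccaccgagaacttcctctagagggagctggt
Bcl2l2: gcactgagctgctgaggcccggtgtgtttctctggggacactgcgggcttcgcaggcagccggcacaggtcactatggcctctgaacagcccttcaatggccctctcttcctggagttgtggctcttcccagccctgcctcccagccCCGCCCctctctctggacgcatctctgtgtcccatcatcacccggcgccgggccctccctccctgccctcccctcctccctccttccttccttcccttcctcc
The Bbc3 window held 5 GC boxes, the Bcl2l11 window 3, the Apaf1 window 2, those of Mcl1 and Bcl2l2 1 each, and those of Bmf and Bak1 0. Of 32851 such windows of 27025 genes, 32.7% held a GC box. The CCAAT box (CCAAT or ATTGG), found in 33.8% of all windows, occurred 3 times before Bmf and once before Bcl2l11. The letters GTAAACA or TGTTTAC of a FoxO site, in 3.17% of all windows, occurred in the Bcl2l11 window and in none of the other 6 shown. Of the windows not shown, the other Bcl2l11 window held 0 such sites and 1 further Bbc3 window held 1. Neither TATAAA (12.4% of windows, either strand) nor TGACGTCA, the cyclic AMP response element (1.55%), occurred in any of the 7. The Apaf1 window had 42 CpG and a GC content of 75.6%, the Bbc3 window 27 CpG and 76.4%, the Mcl1 window 26 CpG and 64.4%, and the Bcl2l11 window 24 CpG and 72%. The windows of Bcl2l2, Bmf and Bak1 had 9, 8 and 8 CpG, against a median of 6 over all windows. All 7 windows thus lay above this median. The genes that rose had 8 to 42 CpG and those that fell 8 to 27, the 27 being that of Bbc3, which fell by 1 probe only. RefSeq lists 2 start windows for Bcl2l11 and 3 each for Bmf and Bbc3, and no start used by these cells was measured.

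Bcl2l11 encodes Bim, a BH3-only protein that binds all pro-survival relatives and can also switch on BAX and BAK. Probe ILMN_3157568, matched to the Bcl2l11 transcript NM_207680, read 8.08, 8.31, 8.05 and 8.24 on the DMSO arrays, 10.58, 10.68, 10.55 and 10.47 after 2 h of SAHA, and 10.22, 10.07, 10.02 and 10.15 after 6 h. Every SAHA array thus lay above every DMSO array, and every 6 h array lay between the DMSO and the 2 h arrays. On the scale of the deposited intensities, before any correction, the probe read 1288 to 2233 at 2 h against 319 to 366 in DMSO. The log2 change was 2.40 ± 0.08 at 2 h (adjusted p = 8.23e-11) and 1.94 ± 0.08 at 6 h (7.21e-11), which is 5.28-fold and 3.85-fold. At 2 h the log2 change was 2.14 without background correction and 2.15 in the authors' normalized values. Between the time points ILMN_3157568 fell by 0.46 ± 0.08 (0.000174), so that the change at 6 h was 81.0% of that at 2 h. The other kept Bcl2l11 probe, ILMN_2590638, was undetected on all 4 DMSO arrays and detected on all 8 SAHA arrays, and it passed the detection filter only because of the SAHA arrays.

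This Bcl2l11 probe read 5.78, 5.69, 5.61 and 5.56 in DMSO, 7.93, 7.90, 7.58 and 7.48 at 2 h and 7.53, 7.60, 7.38 and 7.14 at 6 h. The DMSO readings stood apart from both SAHA groups, and the SAHA groups overlapped each other. On the background-corrected scale it was set against the detection limit of the DMSO arrays. On that scale it was at least 3.28-fold higher at 2 h and at least 2.64-fold higher at 6 h (adjusted p = 1.12e-08 and 1.42e-08). Because detection in the SAHA arrays alone brought this probe into the fit, it had to differ, and these p-values add no support to the rise of Bcl2l11. The fitted log2 changes were 2.07 and 1.75, and without background correction they were 1.22 and 0.99. The latter lie below the lower bounds, which are 1.713 and 1.4 in log2, so the bounds hold only on the corrected scale. Between 6 h and 2 h it fell by 0.31 ± 0.12 (adjusted p = 0.0373). This call was lost without 2 h array 5 or 6 or 6 h array 11 or 12 (adjusted p = 0.113, 0.107, 0.0755 and 0.120), without the detection filter (0.0866) and in a fit of the SAHA arrays alone (0.0626). Both Bcl2l11 probes not kept were matched to the same transcript as ILMN_3157568. Of these, ILMN_1229255 read 85.8 to 97.4 in deposited intensity in DMSO, 111 to 150 at 2 h and 116 to 124 at 6 h. The other, ILMN_3078327, was undetected throughout.

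Bmf is a BH3-only protein that is tethered to the actin and myosin motor system and released on loss of attachment. Its only probe, ILMN_2497190, read 6.97, 7.07, 6.79 and 7.14 in DMSO, 8.23, 8.22, 7.94 and 8.25 at 2 h and 7.72, 7.60, 7.69 and 7.56 at 6 h. The 3 groups did not overlap, with the 6 h arrays in between. Bmf was 2.24-fold higher at 2 h (log2 change 1.165 ± 0.09, adjusted p = 1.499e-07) and 1.57-fold higher at 6 h (0.65 ± 0.09, 1.66e-05). It fell by 0.515 ± 0.09 between 6 h and 2 h (0.000258), which left 55.8% of the early change.

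Bbc3 encodes Puma, a BH3-only protein best known as a target of p53. Probe ILMN_2920736 read 10.00, 10.27, 10.17 and 10.26 in DMSO, 9.86, 10.06, 9.79 and 9.83 at 2 h and 9.76, 9.80, 9.78 and 9.68 at 6 h. Only 1 array at 2 h reached into the DMSO range, and the 6 h arrays all lay below it. The probe fell by 0.29 ± 0.08 at 2 h (adjusted p = 0.00611) and by 0.42 ± 0.08 at 6 h (0.000233). The call at 2 h was lost when arrays were scaled to a common median, with a change of -0.16 (adjusted p = 0.330), and without normalization, with -0.075 (0.786). The other 2 Bbc3 probes did not pass at either time, with changes from -0.22 to -0.03 and standard errors of 0.14 and 0.17, and without normalization their changes at 2 h were 0.014 and 0.048. Bbc3 thus stood apart from Bcl2l11 and Bmf in direction, by the 1 probe that passed.

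Of the pore-forming pair only Bak1 could be read. BAK resides in the outer mitochondrial membrane, where it is held by MCL1 and BCL-XL. Probe ILMN_2945835 read 7.39, 7.23, 7.65 and 7.66 in DMSO, 6.88, 6.75, 6.75 and 7.51 at 2 h and 6.15, 5.93, 5.75 and 5.92 at 6 h. At 2 h 3 arrays lay below all DMSO arrays and array 8 lay within their range, while at 6 h all 4 arrays lay below all others and the probe was detected on only 1 of them. Bak1 fell by 0.51 ± 0.16 at 2 h (adjusted p = 0.0154) and by 1.54 ± 0.16 at 6 h (1.07e-06), when it was 2.91-fold lower, a fold that rests on a 6 h group mostly below the detection limit. The step between the time points was -1.03 ± 0.16 (0.000102), so the fall at 6 h was 302% of that at 2 h. Without normalization between arrays the fall at 2 h was -0.35 and was lost (adjusted p = 0.134). In the authors' normalized values the falls were -0.33 at 2 h and -0.89 at 6 h and both passed.

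The pro-survival genes did not move in one direction. Bcl2l2 encodes BCL-W, a close relative of BCL-XL. Its probe ILMN_2636443 read 10.50, 10.50, 10.51 and 10.53 in DMSO, 9.52 to 9.63 at 2 h and 9.23 to 9.32 at 6 h. Its probe ILMN_2936517 read 9.72 to 10.05 in DMSO, 8.74 to 8.97 at 2 h and 8.45 to 8.67 at 6 h. In both probes the 3 groups were fully separate and stepped down in order. The falls were 0.93 ± 0.05 and 0.99 ± 0.08 at 2 h (adjusted p = 7.82e-09 and 2.60e-07) and 1.23 ± 0.05 and 1.29 ± 0.08 at 6 h (1.38e-10 and 6.06e-09), which is 2.35-fold and 2.45-fold lower. Each fell by a further 0.30 between the time points (0.00024 and 0.00575). The remaining kept Bcl2l2 probe, ILMN_1255755, matched to the cDNA AK013244, went the other way.

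That Bcl2l2 probe was near the detection limit and was detected on 2 of 4 DMSO arrays, 4 of 4 at 2 h and 3 of 4 at 6 h. It read 4.82, 5.603, 5.94 and 6.32 in DMSO, 6.04, 6.504, 6.21 and 6.43 at 2 h and 6.03, 6.21, 6.47 and 6.17 at 6 h. The SAHA arrays lay within or just above the DMSO range, whose spread came mostly from array 1. The change of 0.63 ± 0.24 at 2 h passed (adjusted p = 0.0430) but was 0.34 without DMSO array 1 (0.104), and it was also lost without array 2, 6, 7, 8, 10 or 12, without the detection filter (0.107) and in a fit without the 6 h arrays (0.0723). The change of 0.55 ± 0.24 at 6 h did not pass (0.0546), but did without DMSO array 3 or 4 (0.0443 and 0.00643), without background correction (0.0423), with an offset of 50 (0.0442), with median scaling (0.0257), without normalization (0.0156), with a robust variance trend (0.0345) and in the authors' values without and with the replicate block (0.0445 and 0.0140). This probe thus gives no settled call beside the 2 Bcl2l2 probes detected on all 12 arrays.

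Mcl1 encodes a short-lived pro-survival protein that binds BAK and Bim. Its probe ILMN_1216732 read 12.15, 12.05, 12.17 and 12.04 in DMSO, 12.70, 12.74, 12.60 and 12.67 at 2 h and 12.34 to 12.48 at 6 h. The groups did not overlap, and the 6 h arrays lay between the others. Mcl1 rose 1.49-fold at 2 h (log2 change 0.57 ± 0.06, adjusted p = 3.13e-06) and was 1.24-fold higher at 6 h (0.31 ± 0.06, 0.000391), with a fall of 0.26 ± 0.06 in between (0.00214). At 6 h 53.9% of the early change was left, close to the 55.8% of Bmf, and no test compared these shares. Without normalization between arrays the change at 6 h was 0.35 and did not pass (0.1003).

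Bcl2l1 encodes BCL-XL. Its kept probe, ILMN_2698430, was near the detection limit, with detection on 4, 2 and 3 arrays of the DMSO, 2 h and 6 h groups. It read 6.70, 6.67, 6.44 and 6.33 in DMSO, 6.54, 6.29, 6.02 and 5.92 at 2 h and 6.24, 6.59, 6.24 and 6.04 at 6 h. The groups overlapped. The changes of -0.34 ± 0.14 at 2 h and -0.26 ± 0.14 at 6 h did not pass (adjusted p = 0.0613 and 0.125). The change at 2 h did pass without array 4, 5 or 10 (0.0415, 0.0135 and 0.0424), and that at 6 h without array 10 (0.0363). In the authors' normalized values the change at 2 h was -0.16, with adjusted p = 0.122, and adjusted p = 0.0449 with the replicate number as a block. A change of Bcl2l1 could thus not be settled by this probe.

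Apaf1, the scaffold of the apoptosome, was read by 3 probes that all rose at both times. Probe ILMN_2466335 read 10.97, 11.01, 10.86 and 11.01 in DMSO, 11.93, 11.82, 11.92 and 11.92 at 2 h and 11.84, 12.08, 12.19 and 12.04 at 6 h. Probe ILMN_3143577 read 10.94 to 11.02 in DMSO, 11.83 to 11.93 at 2 h and 11.92 to 12.11 at 6 h. For both, every SAHA array lay above every DMSO array and the SAHA groups overlapped each other. The changes were 0.94 ± 0.07 and 0.91 ± 0.06 at 2 h (adjusted p = 2.26e-07 and 3.64e-08) and 1.08 ± 0.07 and 1.02 ± 0.06 at 6 h (1.82e-08 and 3.31e-09), which is 2.11-fold and 2.02-fold at 6 h. The remaining Apaf1 probe, ILMN_1228561, read 7.45 to 7.69 in DMSO, 7.97 to 8.64 at 2 h and 8.19 to 8.71 at 6 h and gave 0.87 ± 0.14 and 0.95 ± 0.14 (0.000186 and 4.27e-05).

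Between the time points the Apaf1 probes changed by 0.08 to 0.14, and none passed (adjusted p = 0.127, 0.130 and 0.647). Probe ILMN_2466335 did pass without 6 h array 9, with 0.21 (0.0188). In the authors' normalized values the Apaf1 probes ILMN_2466335 and ILMN_3143577 passed, with 0.20 and 0.16 (0.0275 and 0.0298). The rise at 2 h was thus kept at 6 h by every probe, and whether it grew depends on 1 array and on the values used, since without normalization the 3 probes changed by -0.081, -0.117 and -0.174 and did not pass.

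**Figure D2:**
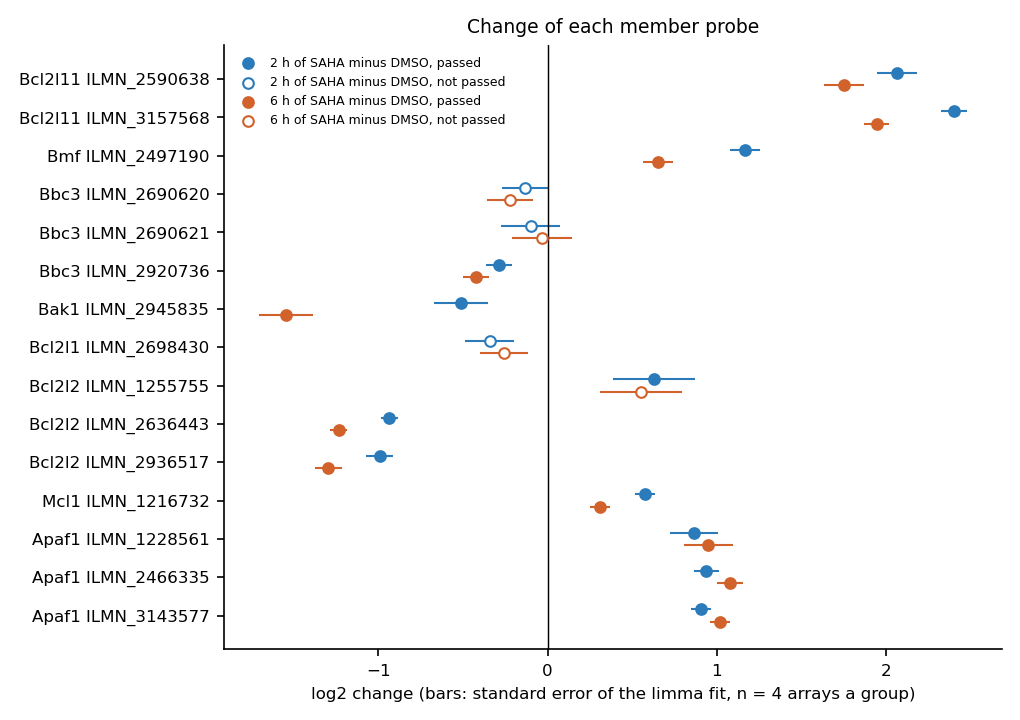
Log2 change (horizontal axis) of each kept probe after 2 h and after 6 h of SAHA, each minus DMSO; points are fitted changes, bars are limma standard errors (n = 4 per group), and filled points passed at an adjusted p under 0.05. The Bcl2l11, Bmf and Mcl1 probes have the larger change at 2 h, while Bak1 and the Bcl2l2 probes ILMN_2636443 and ILMN_2936517 have the larger change at 6 h.

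Of the 15 kept probes, 8 rose, 4 fell and 3 did not pass at 2 h, in a comparison in which 53.5% of all 16431 probes changed (27.3% rose and 26.1% fell). For 9 of the 15 the 2 h and DMSO arrays did not overlap, against 49% of all probes. At 6 h 7 rose, 4 fell and 4 did not pass, where 72.9% of all probes changed (36.9% rose and 36% fell), and 11 did not overlap, against 65.9%. With 1 probe for each gene, the 8 genes gave 4 rises, 3 falls and 1 that did not pass at both times, where 56.6% of 9153 genes changed at 2 h (27% rose and 29.6% fell) and 76.4% at 6 h (38.3% rose and 38% fell). At 6 h the 11 of 15 probes called are near the 72.9% of all probes, while at 2 h the 12 of 15 called, and the 8 that rose, are above the shares of all probes. No test was made of these shares, and several probes belong to 1 gene. The members were also chosen with earlier results of these data known, so a share above that of all probes can come from this choice. The 8 rises at 2 h include the Bcl2l11 probe undetected in DMSO and the Bcl2l2 probe ILMN_1255755, detected on 2 DMSO arrays. Both met the detection filter only with the SAHA arrays, where they read higher, so the filter favoured these 2 rises. Without this Bcl2l11 probe, but still with this Bcl2l2 probe, 7 of 14 probes rose and 4 fell at 2 h. At 6 h 6 rose and 4 fell, and 8 at 2 h and 10 at 6 h did not overlap. The median log2 change of the 15 probes was 0.575 at 2 h and 0.310 at 6 h, beside 0.002 and 0.014 over all probes. Without that Bcl2l11 probe the medians were 0.238 and 0.138. The 1 gene that did not pass at either time was Bcl2l1. Both comparisons share the DMSO arrays.

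The direct comparison of 6 h with 2 h does not set the groups against DMSO, although the DMSO arrays enter the estimate of spread. In it 0 of the 15 probes rose, 7 fell and 8 did not pass by limma, in a comparison in which 56.3% of all probes changed (29.4% rose and 26.9% fell). At an unadjusted p under 0.05 the counts were also 0 and 7, and in the authors' values 2 Apaf1 probes rose. The 7 were both Bcl2l11 probes, Bmf, Mcl1, Bak1 and the Bcl2l2 probes ILMN_2636443 and ILMN_2936517. For 6 of the 15 probes, all among these 7, the time points did not overlap, against 50% of all probes. The 7 falls are of 2 kinds. Bcl2l11, Bmf and Mcl1 were above DMSO at 2 h and came part of the way back, whereas Bak1 and Bcl2l2 were below DMSO at 2 h and went further down. Apaf1 alone among the genes that rose had no fall that passed. Without normalization between arrays the median of all probes moved by -0.213 in this comparison. The falls of both Bcl2l11 probes, Bmf, Mcl1 and these 2 Bcl2l2 probes were then over 1.5 times as large, and all still passed. Standard errors in that setting were alike across member probes, with 0.185 for Bcl2l11, Bmf and Bak1 at 2 h. Calls there thus do not rest on the spread of each probe.

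**Figure D3:**
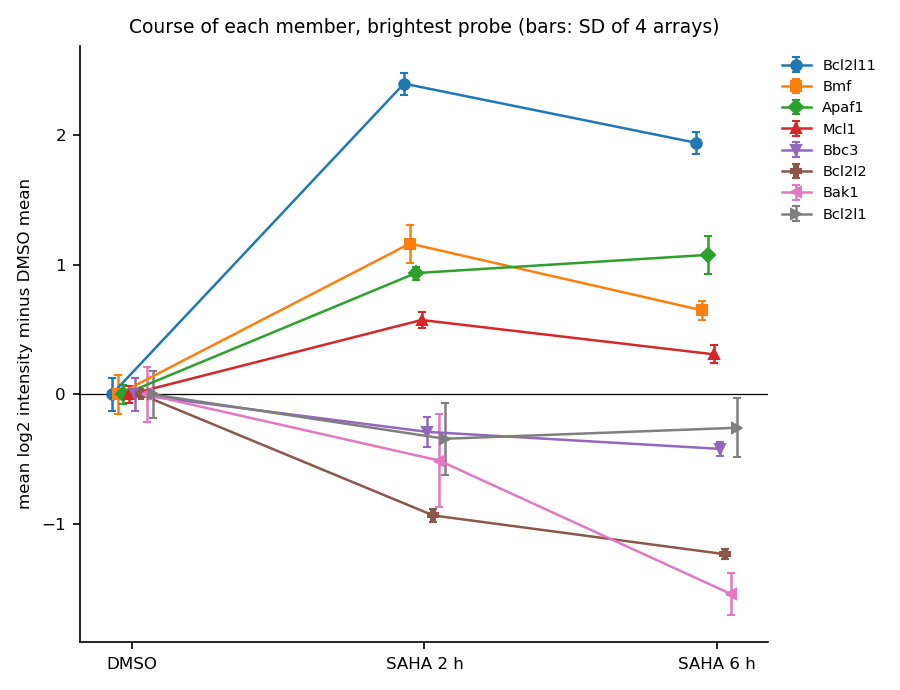
Mean log2 intensity minus the DMSO mean (vertical axis) of the brightest kept probe of each of the 8 genes in DMSO and after 2 h and 6 h of SAHA; bars are the SD of 4 arrays. Bcl2l11, Bmf and Mcl1 peak at 2 h, Apaf1 stays up, and Bcl2l2 and Bak1 go on falling to 6 h.

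The other genes of the pathway are given here by 1 probe each, the brightest kept one. Of 9 measured relatives in the BCL2 and BNIP group, 4 rose and 2 fell at 2 h and 2 rose and 4 fell at 6 h (median changes -0.11 and -0.01, over all genes -0.02 and 0.01), where 27% of all genes rose and 29.6% fell at 2 h and 38.3% rose and 38% fell at 6 h. Bid, the BH3-only link from death receptors, rose by 0.41 ± 0.07 at 2 h and 0.22 ± 0.07 at 6 h, and Bcl2 itself changed by 0.24 ± 0.09 at 2 h, which passed, and by 0.18 ± 0.09 at 6 h, which did not. Bok, a pore-forming relative of BAK, changed by -0.13 ± 0.08 at 2 h, which did not pass, and fell by 0.86 ± 0.08 at 6 h. Bnip3l, a mitophagy receptor, rose by 0.30 ± 0.07 and 0.92 ± 0.07. Bnip1 fell by 0.52 and 0.49, and Bcl2l12 by 0.42 and 0.53. Bnip2 rose by 0.18 at 2 h and fell by 0.20 at 6 h, and without 1 of the arrays 2 to 6 the early call was lost (adjusted p = 0.0613 to 0.0940), as was the late one without array 11 (0.0555). The 4 rises at 2 h dropped to as few as 2 without array 3, 4, 5 or 6. The BH3-only genes Pmaip1, Bik and Hrk had no kept probe.

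Downstream of APAF1, 3 of 14 measured genes of the apoptosome, the caspases and their inhibitors rose and 4 fell at 2 h, and 7 rose and 3 fell at 6 h (medians 0.05 and 0.25). The 7 of 14 and 10 of 14 that changed are near the 56.6% and 76.4% of all genes. Casp9, the caspase that APAF1 activates, read 10.37, 10.37, 10.35 and 10.42 in DMSO, 10.93 to 11.16 at 2 h and 11.21 to 11.40 at 6 h. It rose beside Apaf1 in every SAHA array, by 0.65 ± 0.07 at 2 h and 0.94 ± 0.07 at 6 h (adjusted p = 2.74e-06 and 2.40e-08). Cycs, which encodes the cytochrome c that APAF1 binds, changed by 0.06 ± 0.06 at 2 h and 0.07 ± 0.06 at 6 h and did not pass. Aven, an inhibitor that binds APAF1 and BCL-XL, read 8.854 to 8.998 in DMSO, 8.31 to 8.67 at 2 h and 5.96 to 6.33 at 6 h. It fell by 0.45 ± 0.09 at 2 h (0.000769) and fell by 2.80 ± 0.09 at 6 h (1.51e-11), and was detected on 2 of the 4 arrays at 6 h. Casp8, the initiator caspase of death receptors, fell by 0.43 ± 0.06 and 1.32 ± 0.06, and Birc5 (survivin) by 0.36 ± 0.05 and 0.78 ± 0.05. Casp6, an effector caspase, changed by 0.05 ± 0.07 at 2 h, which did not pass, and rose by 0.68 ± 0.07 at 6 h. Parp1, a substrate of effector caspases, rose by 0.40 and 0.72. Aifm1 rose by 0.31 and 1.02, and its early call was lost without array 1, 3 or 7 (adjusted p = 0.0812, 0.0518 and 0.0728).

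Of 10 measured genes of death receptor signalling, 4 rose and 2 fell at 2 h, and 5 rose and 4 fell at 6 h (medians 0.03 and 0.28), beside 27% and 29.6% of all genes at 2 h and 38.3% and 38% at 6 h. Fas, the receptor for Fas ligand, rose by 1.14 ± 0.07 at 2 h and 1.06 ± 0.07 at 6 h. Faim, an inhibitor of Fas-induced death, rose by 0.71 ± 0.08 and 1.04 ± 0.08. Tnfrsf12a, the TWEAK receptor, fell by 0.72 ± 0.07 and 1.71 ± 0.07, and Cflar, the FLIP inhibitor of caspase 8, by 0.23 and 0.43. Tnfrsf21 rose by 0.22 and 0.95, and leaving out any 1 of the arrays 1 to 8 ended its early call (adjusted p = 0.0523 to 0.102). Tnfrsf1a, a receptor for TNF, changed by -0.04 ± 0.14 at 2 h, which did not pass, and fell by 0.77 ± 0.14 at 6 h. Members of this group that act for and against death thus stood on both sides.

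Of 19 measured genes known to act on BCL2 family transcripts or proteins, 9 rose and 3 fell at 2 h, and 12 rose and 3 fell at 6 h (medians 0.13 and 0.43). Of all genes 27% rose and 29.6% fell at 2 h, and 38.3% rose and 38% fell at 6 h. Foxo1, a transcription factor known to act on Bcl2l11, read 7.23 to 7.38 in DMSO, 8.29 to 8.46 at 2 h and 8.20 to 8.47 at 6 h, which is a rise of 1.05 ± 0.07 and 1.03 ± 0.07. Ddit3 (CHOP), a stress factor also known to act on Bcl2l11, rose by 0.99 ± 0.14 and 1.46 ± 0.14, and Jun by 0.60 ± 0.09 and 0.87 ± 0.09. Dynll2, the light chain that tethers Bmf, rose by 0.79 ± 0.12 and 1.35 ± 0.12. Rbm38, an RNA-binding protein, rose by 2.98 ± 0.09 and 2.75 ± 0.09, the largest changes of these lists at either time apart from the fall of Aven at 6 h. Rela, a subunit of NF-kappa B, fell by 0.49 ± 0.06 and 0.68 ± 0.06. Trp53, which encodes p53, was not analysed here.

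Of 11 measured genes of mitochondrial fission, fusion and cristae, 0 rose and 3 fell at 2 h by limma, and 1 rose and 6 fell at 6 h (medians -0.14 and -0.25). The 3 of 11 that fell at 2 h are near the 29.6% of all genes, of which 27% rose, and at 6 h 38.3% of all genes rose and 38% fell. At an unadjusted p under 0.05, 0 rose and 4 fell at 2 h. Oma1, a protease of the inner membrane, fell by 0.83 ± 0.06 and 0.59 ± 0.06. Dnm1l, the fission GTPase DRP1, fell by 0.23 ± 0.07 and 0.62 ± 0.07, and its receptor Fis1 changed by -0.14 ± 0.07 at 2 h, which did not pass, and fell by 0.74 ± 0.07 at 6 h. Without normalization between arrays Dnm1l changed by 0.002 at 2 h. Mfn1, a fusion GTPase, changed by -0.03 ± 0.07 at 2 h, which did not pass, and rose by 0.61 ± 0.07 at 6 h, while its relative Mfn2 changed by -0.07 ± 0.06 and fell by 0.25 ± 0.06. Letm1, a cation exchanger of the inner membrane, changed by -0.12 ± 0.07 at 2 h, which did not pass, and fell by 0.46 ± 0.07.

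**Figure D4:**
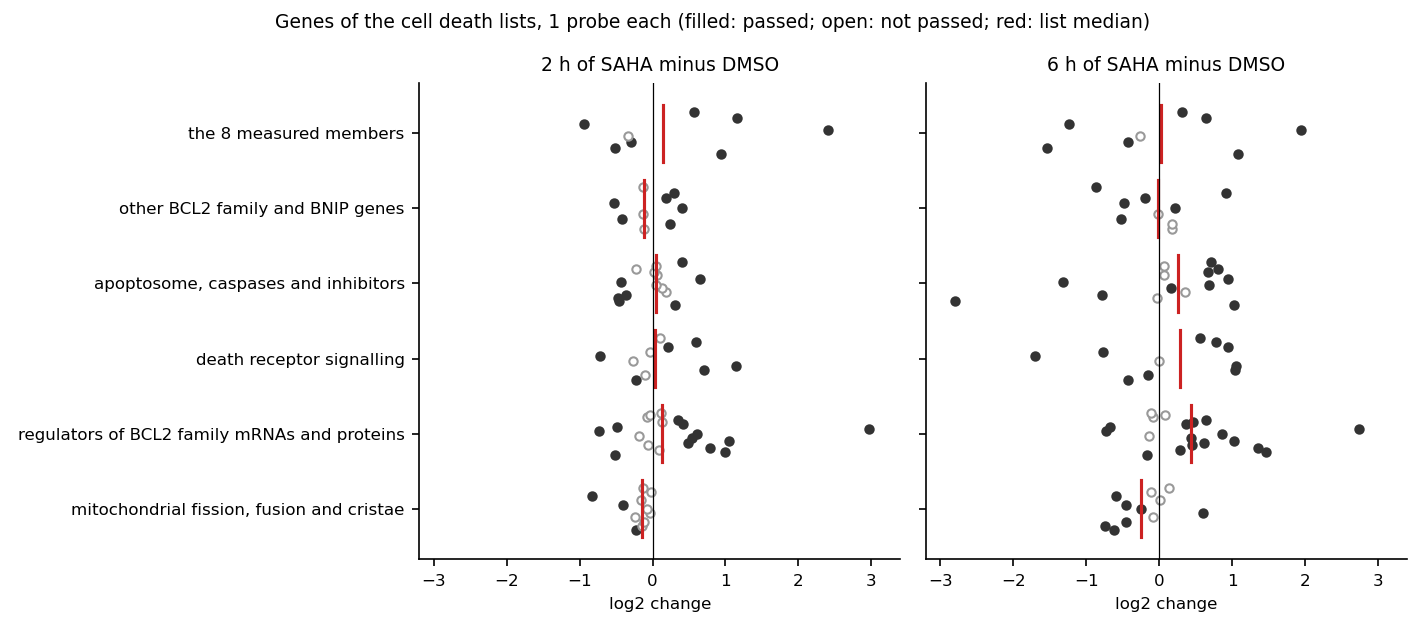
Log2 change (horizontal axis) of each measured gene of the death pathway lists, 1 probe each, after 2 h and after 6 h of SAHA, each minus DMSO; filled points passed, open points did not, and red bars are list medians. At 6 h all 6 lists hold genes on both sides of 0, and at 2 h the mitochondrial list lies wholly below 0 while the other 5 hold both, with Bcl2l11 at 2.40 and Rbm38 at 2.98 on the far right at 2 h and Aven at -2.80 on the far left at 6 h.

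Genes whose pattern lay nearest to that of a member were ranked by the Euclidean distance over the 12 arrays, after each probe's DMSO mean was subtracted, among 8912 genes. Nearest to Bcl2l11 were Csrnp1, Trp53bp2, Tent5c, Nuak2 and Baiap2, at distances of 1.00 to 1.10. Csrnp1 changed by 1.99 at 2 h and 2.13 at 6 h, and Nuak2 by 2.76 and 2.31, beside 2.40 and 1.94 for Bcl2l11. Nearest to Bmf were Etv5, Tcirg1, Per1, Map3k14 and Timp3, at 0.388 to 0.544. Etv5 changed by 1.15 and 0.61, beside 1.165 and 0.65 for Bmf. Nearest to Apaf1 were Fam91a1, Snx30, Tprn, Ppme1 and Alas1, at 0.276 to 0.362, and Fam91a1 changed by 0.92 and 1.15. The distances were smaller for Apaf1 and Bmf than for Bcl2l11, whose nearest gene rose more at 6 h than at 2 h. Such distances grow with the size of a change, which was largest for Bcl2l11, so they do not compare closeness of pattern between members. All of these values come from the same arrays.

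Facts of the arrays as a whole bear on these values. Detected probes numbered 15610 to 16065 in DMSO, 14904 to 15982 at 2 h and 15264 to 15705 at 6 h, and mean deposited intensities were 747 to 852, 724 to 1061 and 663 to 837. Over the kept probes, log2 differences between 2 arrays had an SD of 0.539 to 0.860 for arrays of different groups and 0.174 to 0.263 for arrays of the same group. Of 12 osteoblast markers 9 were kept, with a summed normalized intensity of 128400 to 145600 in DMSO, 128700 to 133000 at 2 h and 127400 to 132600 at 6 h. The brightest of them, such as Sparc and Col1a1, weigh most in this sum. At 6 h 3 of the 9 fell (Alpl, Bglap2 and Sp7), and at 2 h only Sp7 did. Of all genes, 38% fell at 6 h and 29.6% at 2 h. The log2 change of Sp7 was -2.10 at 2 h and -4.23 at 6 h. Of 8 macrophage and blood markers 4 were kept, all 4 fell at 6 h, and their sum was 2173 to 2455, 1892 to 2072 and 1543 to 1651, while Ptprc, Adgre1 and Tyrobp were detected on 0 arrays. Of 7 chondrocyte markers 3 were kept (sums of 3831 to 4308, 3334 to 3802 and 3249 to 3764), of 8 skeletal muscle markers 3 (310 to 353, 250 to 288 and 278 to 320), and of 8 adipocyte and 6 endothelial markers 0. Falls were also called at 6 h for 2 of the 3 chondrocyte and 1 of the 3 muscle markers. At 2 h 2 markers each of the blood, chondrocyte and muscle lists fell. The part of these shifts in the changes of the members was not tested.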

How the data were processed

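RNA of 12 arrays was read on an Illumina mouse BeadChip. The deposited table holds, per the file headers, a linear intensity for each probe and array that was not normalized. Beside each intensity the authors deposited a detection p-value, in the column to its right. The authors also deposited normalized intensity values on a linear scale, whose normalization is not given in the sources used here and whose column medians lie between 98.1 and 99.15. Probes were named through the platform annotation; 34885 carried 1 symbol, 18 several and 10378 none. Arrays are called by the running number in the first table, since replicate numbers stand only with the second.

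Intensities were corrected with the normexp model from the detection p-values, given an offset of 16, quantile-normalized and log2-transformed (neqc, limma 3.58.1, R 4.3.3). This offset shrinks changes of dim probes, and normalization removes a shift shared by all probes. One limma model was fitted to the 3 groups over all kept probes, with two-sided moderated tests and Benjamini-Hochberg adjustment over 16431 probes. Over the probes kept, log2 changes had a median standard error of 0.089, and the number of arrays limits the precision. A probe undetected on all arrays of a group was set against the detection limit, the lowest log2 value of a detected probe on each array or the probe's own value where higher.

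All probes of the members are named; of the other lists, up to 6 genes with the smallest p at 6 h and those changed at least 2-fold are, and Bcl2, Cycs, Trp53, Pmaip1, Bik and Hrk were named outside this rule, after their values were seen. The members and lists were chosen with earlier results of these data known. Alternatives covered background correction, offset, normalization, the authors' values, probe filter, 1 probe per gene, groups in the fit, variance model, array weights, threshold and each array left out. In the authors' values, deviations of arrays with the same replicate number correlated at 0.17 to 0.394 between 2 h and DMSO. The correlations were 0.168 to 0.348 between 6 h and 2 h, but 0.013 to 0.121 between 6 h and DMSO. In these 3 comparisons the best match had the same number for 4, 3 and 1 of 4 arrays. The numbers thus paired the arrays between 2 h and DMSO, less fully between 6 h and 2 h, and poorly between 6 h and DMSO. The fit was tested on simulated data with noise drawn independently for each array. A first criterion for finding 2-fold changes was narrowly missed and was replaced by a looser one, which was met. Promoter sequences are RefSeq's.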

Additional observations from a re-analysis of the deposited data

Results flagged for a closer look

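In 3 of 45 groups of 4 arrays, 1 array lay far from the other 3 by Dixon's ratio of its gap to the whole range of the group, at the 95% critical value. Chance alone gives about 1 such group in 20. All 3 were groups at 2 h of SAHA. The Bmf reading of array 7 was low (ratio 0.9), the Bak1 reading of array 8 was high (0.835) and the Apaf1 reading of array 6 by probe ILMN_2466335 was low (0.885). The Bak1 array lay within the DMSO range, and the other 3 arrays read 6.75 to 6.88.

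Levels differed between the 6 h and 2 h SAHA arrays for 7 of 15 kept probes by the limma test of that difference. By the same test 56.3% of all kept probes changed. Effects of SAHA and of hours in culture cannot be told apart in this difference. The differences were -0.457 and -0.313 for the Bcl2l11 probes ILMN_3157568 and ILMN_2590638, -0.515 for Bmf and -0.265 for Mcl1, all of which had risen. The call of ILMN_2590638 was lost in several alternatives, as given above. The differences were -1.032 for Bak1 and -0.3 and -0.302 for the Bcl2l2 probes ILMN_2636443 and ILMN_2936517, which had fallen. The Bcl2l11 probe ILMN_1229255, which entered no test, was detected on 1 array after SAHA and on 0 DMSO arrays.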

How the results depend on the processing

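Over 1089 recomputed values, the 45 member results kept their direction and side of the threshold in 1027, lost the call in 22 and gained one in 19; in the other 21 the sign turned, all for changes that did not pass, and 0 changes that passed turned. With 1 probe per gene, which tests fewer probes, 5360, 7083 and 5743 were called at 2 h, at 6 h and between 6 h and 2 h (8784, 11970 and 9253 with all probes), and 4 members rose at each time. Without normalization between arrays 2 member probes fell at 2 h in place of 4 (Bbc3 and Bak1 were lost) and 5852 probes were called between 6 h and 2 h; Dnm1l changed by 0.002 at 2 h and Oma1 by -0.019 between 6 h and 2 h, each against its main direction. The cause was not tested, and standard errors were alike across member probes without normalization. That setting moved the median of all probes by 0.199 at 2 h and -0.213 between 6 h and 2 h, and median scaling by 0.112 at 2 h; the calls that were rises made up 74.98% and 65.48% at 2 h, against 51.12%, and 18.16% and 33.81% between 6 h and 2 h, against 52.22%. In the authors' values 2 member probes rose between 6 h and 2 h, both of Apaf1, in place of 0, with and without the replicate block. The block changed 1 of 45 member calls, that of Bcl2l1 at 2 h (adjusted p = 0.0449 with it and 0.122 without). Leaving out each array gave 8104 to 8801, 11446 to 12035 and 8501 to 9184 probes called, member rises of 7 to 8, 7 to 8 and 0 to 1 and member falls of 4 to 5, 4 to 5 and 6 to 7. Signal near background limits Bak1 at 6 h, Bcl2l1 and the dim probes of Bcl2l11, Bbc3 and Bcl2l2.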
